A study of Mus musculus with 14 samples.

Results

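The cell cycle and proliferation genes described here are 44 genes listed by symbol, each matched to its Ensembl row among the 33939 genes of the expression table. They were measured by bulk RNA-seq of CD11b+ microglia and other myeloid cells, isolated with magnetic beads from the contralateral (CL) and the ipsilateral, injured (IL) hemispheres of mouse brains 3 days after traumatic brain injury (TBI) by controlled cortical impact. Ctrl mice carried Cx3cr1-CreER+/- alone, and cKO mice carried Cx3cr1-CreER+/- with both copies of the targeted gene floxed; all were C57BL/6, 8 to 12 weeks old and tamoxifen-treated, so both genotypes shared the Cre allele, the drug and the injury. The Cre is driven by Cx3cr1, which microglia and some other myeloid cells express. Cells of the sort without Cx3cr1 activity when tamoxifen was given would keep the targeted gene. The paper describes a waiting period between tamoxifen and injury, meant to let peripheral Cx3cr1+ monocytes be replaced. Infiltrating cells that express Cx3cr1 may therefore also keep the gene. Ctrl CL and Ctrl IL held 4 libraries each, from mice 3541, 3545, 3546 and 3551. cKO CL held mice 788, 791 and 3592, and cKO IL held mice 784, 791 and 3592. Whether 784 and 788, each with 1 library, are 1 mouse numbered differently or 2 mice could not be settled from the labels, and they were treated as 2.

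Proliferating cells express these genes in waves. E2F transcription factors drive a first wave before and during DNA synthesis, which supplies the machinery that licenses and fires replication origins and the enzymes that make deoxynucleotides. A later wave in G2 and M phase, driven by FOXM1, MYB-type complexes and NF-Y, supplies the kinases, cyclins, motors and ubiquitin ligase factors of mitosis. Adult microglia divide slowly at rest and expand by local division after injury, and infiltrating myeloid cells may also be cycling. In sorted bulk RNA, a smaller share of cycling cells and less RNA per cycling cell cannot be told apart.

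Library depth, taken from the smallest step of each column, ranged from 12.2 M to 41.6 M reads (median 34.2 M), and the shallowest library was Ctrl IL of mouse 3546. All 8 microglia markers were detected in every group, with summed levels of 25201 to 35142 CPM (read counts scaled so that every library has the same total of 1000000) in the CL libraries and 14566 to 17244 CPM in the IL libraries. Of the 44 members, 14 share exon bases with another annotated gene, and Gins2 shares 2758 bases with Gse1 on the opposite strand. The library kit is not stated to mark strand, so reads from such pairs cannot be told apart. Tyms, Pcna, Ccnb1 and Ccnb2 each have a listed pseudogene, of which Pcna-ps2 reached 57.7 CPM and Ccnb1-ps 37.4 CPM, so their values are less certain.

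The promoters of the 44 genes differed in their short sequence words by role. RefSeq windows of 300 bases (250 before to 50 after the gene start, GRCm38.p6) were matched for 36 members, in 39 windows, since a gene can have several starts. Both strands were searched for TTTGAA, the core of the cell cycle homology region (CHR) bound by MYB-type and DREAM complexes, for CCAAT, the NF-Y box, and for the E2F-type word TTCCCGC with its variants, which read TTCGCGC in one form, TTGGCGC in another form and TTGCCGC in the last. TTTGAA was in 18 of 39 member windows (46.2%) and in 17.9% of all 32851 promoter windows. CCAAT was in 31 member windows (79.5%) against 37.4% of all windows, and an E2F-type word in 14 (35.9%) against 9.57%. TTTGAA was found in 8 of 11 windows of mitotic regulators and 8 of 10 windows of spindle and kinetochore genes, but in 2 of 9 windows of licensing and helicase genes and 0 of 7 of nucleotide and fork genes. E2F-type words had the opposite distribution, in 7 of 9, 4 of 7, 2 of 11 and 1 of 10 windows of licensing, nucleotide, mitotic and spindle genes. These matches describe letters and are not measured binding, and the windows of E2f1 and Ccne1 held none of the words.

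**Figure D1:**
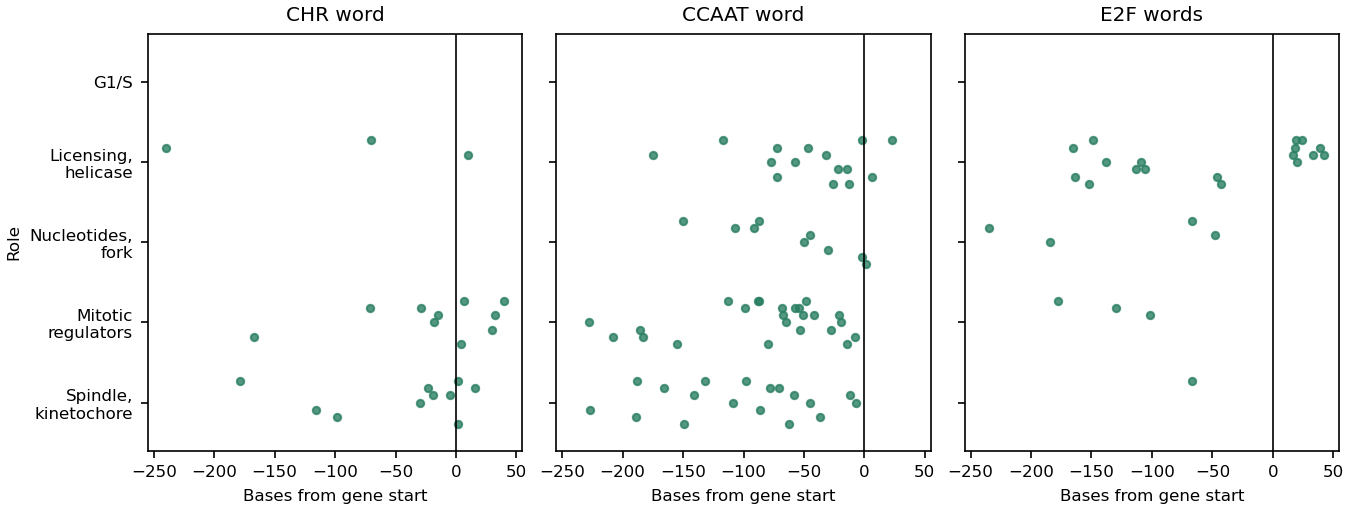
Positions of the searched words in member promoters, as bases from the gene start (x axis) for each role (y axis), with 1 point per match. CHR words lie mostly in the mitotic and spindle rows and E2F words mostly in the licensing row.

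The 250 bases before the start are shown for 5 members that recur below, as examples of the different word content of the waves. They are a mitotic cyclin, the proliferation marker, a centromere histone, a nucleotide enzyme and a helicase subunit. The printed bases stop at the gene start, so words counted in the 50 bases after it are not shown. Among those are a TTTGAA of Cenpa (at 16 bases after the start), a further TTTGAA of Ccnb2 (at 4) and an E2F-type word of Mcm6 (at 24). Sequences are from RefSeq on GRCm38.p6, 5′ to 3′ on the strand of the gene, with matches to the CHR core, the NF-Y box and the E2F-type words on either strand in capitals. The 3 CCAAT boxes of Ccnb2 and the tandem TTTGAA of Mki67 stand beside the paired E2F-type words of Mcm6, where overlapping matches on the 2 strands run together.
Ccnb2 (chr9:70421555-70421804, reverse strand): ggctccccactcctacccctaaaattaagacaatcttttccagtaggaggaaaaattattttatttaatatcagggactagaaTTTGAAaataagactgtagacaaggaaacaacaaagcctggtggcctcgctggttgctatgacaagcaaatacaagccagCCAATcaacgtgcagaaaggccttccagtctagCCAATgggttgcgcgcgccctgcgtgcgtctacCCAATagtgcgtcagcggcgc
Mki67 (chr7:135716380-135716629, reverse strand): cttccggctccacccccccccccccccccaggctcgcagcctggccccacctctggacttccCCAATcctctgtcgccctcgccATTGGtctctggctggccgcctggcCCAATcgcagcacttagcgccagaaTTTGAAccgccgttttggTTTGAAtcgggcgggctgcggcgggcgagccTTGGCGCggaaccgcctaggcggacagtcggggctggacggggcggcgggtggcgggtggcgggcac
Cenpa (chr5:30666636-30666885, forward strand): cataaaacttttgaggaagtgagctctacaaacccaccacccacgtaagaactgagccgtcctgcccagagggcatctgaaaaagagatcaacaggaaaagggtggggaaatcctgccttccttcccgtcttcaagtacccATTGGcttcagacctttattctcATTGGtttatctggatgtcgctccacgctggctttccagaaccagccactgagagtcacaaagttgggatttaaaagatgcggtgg
Rrm2 (chr12:24708004-24708253, forward strand): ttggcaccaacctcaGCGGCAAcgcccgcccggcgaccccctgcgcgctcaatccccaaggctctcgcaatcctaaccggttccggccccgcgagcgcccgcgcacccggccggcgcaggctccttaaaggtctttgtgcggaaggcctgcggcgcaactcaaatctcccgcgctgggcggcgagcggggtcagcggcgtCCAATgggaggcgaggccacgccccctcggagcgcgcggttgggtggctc
Mcm6 (chr1:128359706-128359955, reverse strand): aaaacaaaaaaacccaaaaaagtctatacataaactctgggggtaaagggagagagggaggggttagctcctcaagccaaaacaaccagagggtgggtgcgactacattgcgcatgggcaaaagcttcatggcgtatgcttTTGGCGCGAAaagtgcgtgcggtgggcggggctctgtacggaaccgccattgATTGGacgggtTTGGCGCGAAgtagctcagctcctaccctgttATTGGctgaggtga

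All 44 genes were expressed and passed the filter on low values in every comparison, and together they took between 0.129% and 0.391% of all CPM. Per kilobase of exon, Mcm3, a subunit of the MCM replicative helicase, was the highest member in Ctrl CL with a mean of 62.3 CPM per kb, followed there by Pcna at 42.2, and Cenpf was the lowest at 2.20. In cKO IL the 2 highest per kilobase were Cdc20 at 43.9 and Rrm2 at 43.2. The genes moved together from library to library. Over the 14 libraries, the 946 pairwise correlations of log2 values were all above 0, with a median of 0.82, as a description of libraries that differ in depth and mouse. Aurkb followed the mean of the other members most closely (r = 0.98), and Mcm3 (0.67) and Cenpf (0.68) least.

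The CL hemispheres carried most of this variation. Summed over the 44 members, the Ctrl CL libraries of mice 3541, 3545, 3546 and 3551 held 3909.8, 2574, 1569 and 3265 CPM, and the Ctrl IL libraries of the same mice held 3085, 3216, 2587 and 3830.0 CPM. The cKO CL libraries of mice 788, 791 and 3592 held 3119, 2563 and 1289 CPM, and the cKO IL libraries of mice 784, 791 and 3592 held 2876, 2815 and 3305 CPM. The ranges of CL and IL thus overlapped in both genotypes, and 2 CL libraries stood below all others. cKO CL of mouse 3592 was the lowest of the 14 libraries for 32 members, and Ctrl CL of mouse 3546 was the lowest for the other 12. The median SD of a member across libraries, on the log2(CPM + 1) scale, was 0.63 in Ctrl CL and 0.66 in cKO CL, against medians of 0.26 and 0.18 for 18476 genes. In Ctrl IL and cKO IL it was 0.30 and 0.14, against 0.26 and 0.15 for the same genes. Ccnb1, the M phase cyclin, spanned 4.65-fold in Ctrl CL, and Foxm1, which drives the G2 and M wave, spanned 3.46-fold in cKO CL.

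**Figure D2:**
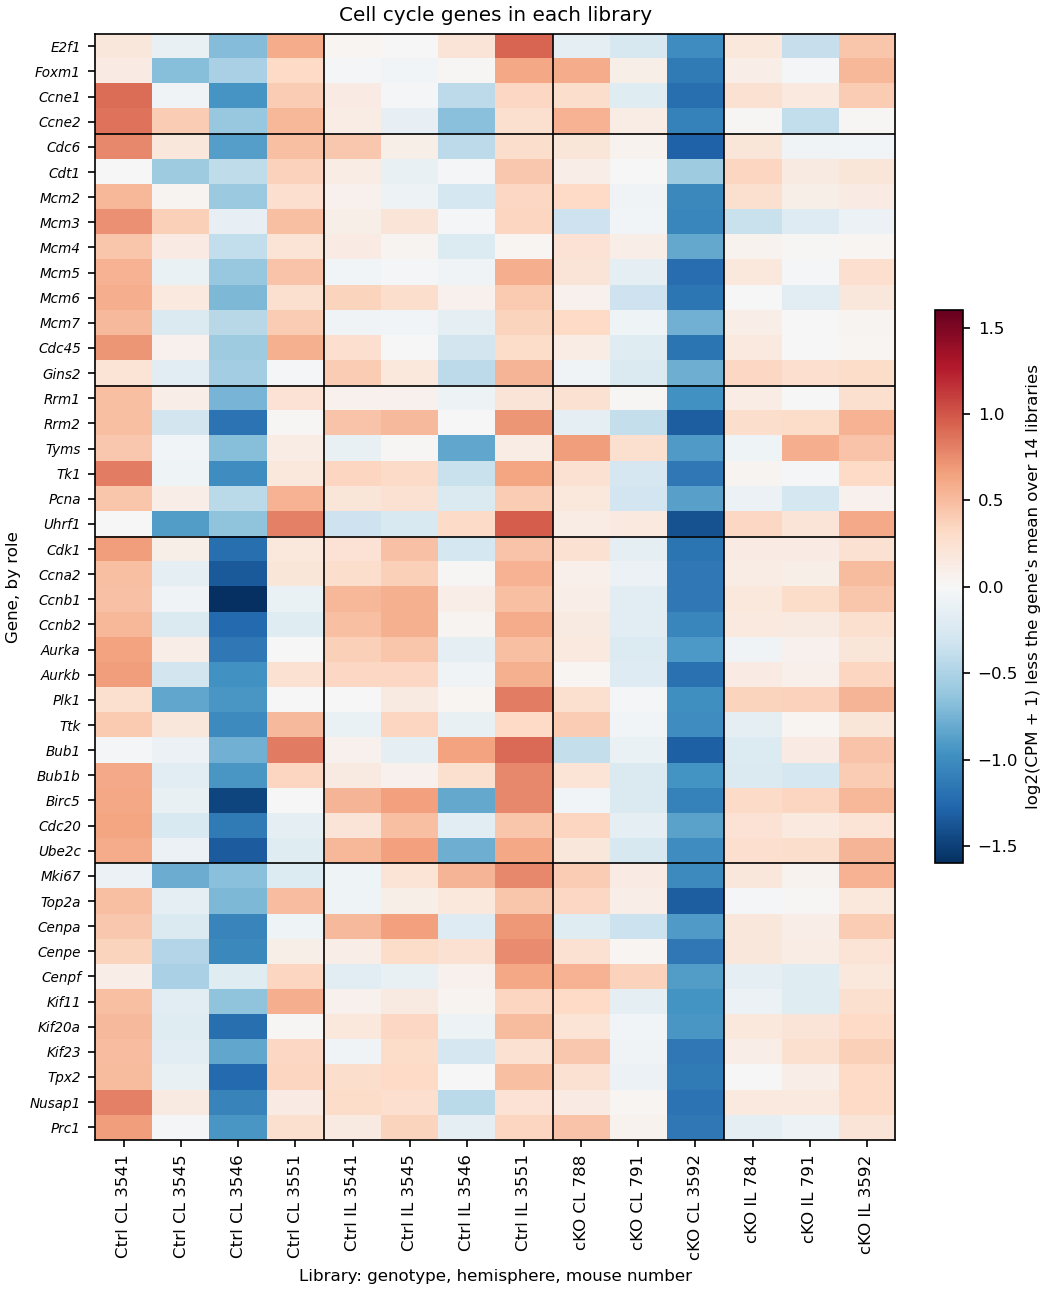
Level of each of the 44 genes (rows, by role) in each of the 14 libraries (columns), as log2(CPM + 1) less the gene's mean over the libraries. Ctrl CL of mouse 3546 and cKO CL of mouse 3592 are low for nearly every gene, while the cKO IL libraries resemble each other.

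The first question was whether cell cycle genes differed between the injured and the uninjured hemisphere of Ctrl mice. Mki67, the nuclear proliferation marker that coats mitotic chromosomes, was the only member that passed the test (limma on log2(CPM + 1), Benjamini-Hochberg over all genes tested, adjusted p up to 0.05 and a fold of at least 1.2). Its level in mice 3541, 3545, 3546 and 3551 was 80.7, 49.2, 53.8 and 74.3 CPM in CL and 82.4, 101, 127 and 147 CPM in IL. Every IL library was above every CL library, which held for 1 member and for 6.26% of all genes, with a log2 fold change of 0.90 ± 0.20 (SE, n = 4 and 4) and an adjusted p of 0.0241 by limma. This 1 call among 44 genes compares with 7.51% of all genes called in this comparison and 4.19% called higher. Direction was less even, since 39 members had a log2 fold change above 0 against 46.5% of all genes, with a median of 0.35 against -0.03 over all genes tested. The call of Mki67 held in 4 of 8 fits that left out 1 library and was lost without CL of mouse 3545 or 3546 or IL of mouse 3545 or 3551 (log2 fold changes of 0.79 to 0.90, adjusted p = 0.0634 to 0.0926, limma). It was also lost with deposited CPM without further scaling and with no filter (adjusted p = 0.052 and 0.0717, limma). Without Ctrl CL of mouse 3546, 24 members lay above 0 and the median was 0.10.

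In order of role, the genes of the mitotic wave had the larger median differences in Ctrl mice, although each role moved with 1 library. The 13 mitotic regulators had a median log2 fold change of 0.55 and all lay above 0, with none called. Without Ctrl CL of mouse 3546 their median was 0.19, with 11 above 0. Plk1, the kinase that drives mitotic entry, measured 50.6, 23.2, 21.6 and 42.1 CPM in CL and 42.2, 46.8, 43.0 and 74.8 CPM in IL, and Ccnb2, a cyclin partner of CDK1, measured 78.3, 45.7, 22.2 and 47.0 CPM in CL and 75.3, 80.2, 55.5 and 81.5 CPM in IL. The IL range of each overlapped the CL range, with log2 fold changes of 0.71 ± 0.29 (adjusted p = 0.192, limma) and 0.79 ± 0.35 (adjusted p = 0.225, limma). The 11 spindle and kinetochore genes had a median of 0.27 and all lay above 0, against 0.09 and 6 above 0 without that library. Cenpa, the centromeric histone variant, had a log2 fold change of 0.73 ± 0.34 (adjusted p = 0.247, limma), and Top2a, the topoisomerase that untangles sister chromatids, had 0.22 ± 0.26 (adjusted p = 0.712, limma). Top2a measured 185, 118, 80.3 and 187 CPM in CL and 126, 141, 149 and 180.1 CPM in IL, so its IL values lay within the CL range.

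The replication genes of Ctrl mice had smaller differences. The 10 licensing and helicase genes had a median log2 fold change of 0.05, with 7 above 0 and none called, against -0.17 and 3 above 0 without Ctrl CL of mouse 3546. Cdt1, which loads the MCM helicase at origins, had 0.34 ± 0.21 and Gins2, a subunit of the active helicase, 0.39 ± 0.27 (adjusted p = 0.407 and 0.454, limma). The 6 nucleotide and fork genes had a median of 0.23 (-0.08 without that library), led by Rrm2, the S phase subunit of ribonucleotide reductase, at 0.74 ± 0.34 (adjusted p = 0.238, limma). Uhrf1, which carries DNA methylation through replication, measured 39.9, 21.2, 25.3 and 70.7 CPM in CL and 31.5, 33.7, 49.96 and 79.2 CPM in IL, a spread within each hemisphere wider than the difference of 0.44 ± 0.36. The last group of 4 genes holds the E-type cyclins Ccne1 and Ccne2 and the transcription factors E2f1 and Foxm1, of which Foxm1 acts in the later wave. Its median was 0.20, and -0.10 without Ctrl CL of mouse 3546. Foxm1 had 0.42 ± 0.24 and E2f1 0.39 ± 0.28 (adjusted p = 0.359 and 0.486, limma), while Ccne2, a cyclin of S phase entry, was the lowest of all members at -0.32 ± 0.35.

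Both hemispheres of each Ctrl mouse were sequenced, and a fit that compares them within mice called 9 members in Ctrl, all higher in IL: Gins2, Rrm2, Ccnb1, Ccnb2, Plk1, Birc5, Ube2c, Mki67 and Cenpa. In that fit 20.4% of all genes were called in either direction and 10.2% were called higher, beside 9 of 44 members called higher. With the mouse as a random effect over the 14 libraries, 6 were called, all higher (Rrm2, Ccnb1, Ccnb2, Plk1, Mki67 and Cenpa), where 23.9% of all genes were called in either direction and 11.1% were called higher.

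In cKO mice the same comparison called 4 members, all higher in IL, where 23.1% of all genes were called and 12.3% were called higher. Rrm2 measured 83.2, 70.3 and 36.1 CPM in CL of mice 788, 791 and 3592 and 112, 112 and 136 CPM in IL of mice 784, 791 and 3592, a log2 fold change of 1.05 ± 0.28 (SE, n = 3 and 3; adjusted p = 0.031, limma). Birc5, or survivin, the chromosomal passenger protein that also inhibits apoptosis, measured 65.4, 57.1 and 31.4 CPM in CL and 83.7, 85.6 and 97.7 CPM in IL (0.91 ± 0.25, adjusted p = 0.0345, limma). Cenpa measured 45.4, 40.6 and 27.3 CPM in CL and 59.3, 55.9 and 69.4 CPM in IL (0.78 ± 0.19, adjusted p = 0.0213, limma). Gins2, which shares exon bases with Gse1, measured 29.9, 26.5 and 17.7 CPM in CL and 39.4, 37.8 and 38.5 CPM in IL (0.72 ± 0.19, adjusted p = 0.0311, limma). In each of these 4 genes every IL library was above every CL library, which held for 13 of the 44 members and for 18.1% of all genes.

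Over the 44 genes the median log2 fold change in cKO mice was 0.54, against 0.01 over all genes tested, and 43 lay above 0 against 50.6% of all genes. The exception was Cenpf, a kinetochore protein, at -0.00 ± 0.35. By role the medians were 0.51 for the E-type cyclins with E2f1 and Foxm1, 0.47 for licensing and helicase genes, 0.50 for nucleotide and fork genes, 0.69 for mitotic regulators and 0.52 for spindle and kinetochore genes. Without CL of mouse 3592 they were 0.09, 0.11, 0.11, 0.29 and 0.08 in the same order. Mki67, called in Ctrl mice, measured 115, 94.8 and 41.9 CPM in cKO CL and 98.1, 89.5 and 127 CPM in cKO IL, with 0.49 ± 0.34 (adjusted p = 0.336, limma). Its CL range reached into the IL range. Top2a had 0.41 ± 0.39, Foxm1 0.42 ± 0.39, E2f1 0.61 ± 0.26 and Uhrf1 0.82 ± 0.38, and none of these passed the test (adjusted p = 0.483, 0.485, 0.128 and 0.161, limma). Plk1 had 0.74 ± 0.29, Ccnb2 0.61 ± 0.27 and Cdt1 0.45 ± 0.19 (adjusted p = 0.101, 0.146 and 0.128, limma).

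Which libraries were used mattered in cKO mice. Without CL of mouse 3592, the median fell from 0.54 to 0.15 and 33 members lay above 0, yet Rrm2, Birc5, Cenpa and Gins2 were still called, with log2 fold changes of 0.68, 0.58, 0.55 and 0.49. Cenpf was then called in the other direction, at -0.47 (adjusted p = 0.0279, limma). Those 5 calls stand beside 20.6% of all genes called in that fit. Without any 1 of the 3 cKO IL libraries no member was called by limma, where at least 11.3% of all genes were. Without CL of mouse 788 12 members were called, beside 14.3% of all genes, and without CL of mouse 791 2 were (Rrm2 and Cenpa), beside 18.2%. A fixed term for the mouse called 21 members, all higher in IL, where 14.5% of all genes were called and 8.42% were called higher. Plk1 and Ccnb2 were among these 21, and also among the 12 called without CL of mouse 788. The fixed term, however, rests on mice 791 and 3592 alone and leaves 1 residual degree of freedom, since 784 and 788 were not paired. The random effect called 3 (Gins2, Rrm2 and Cenpa), all higher, where 17.7% of all genes were called and 7.73% were called higher.

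**Figure D3:**
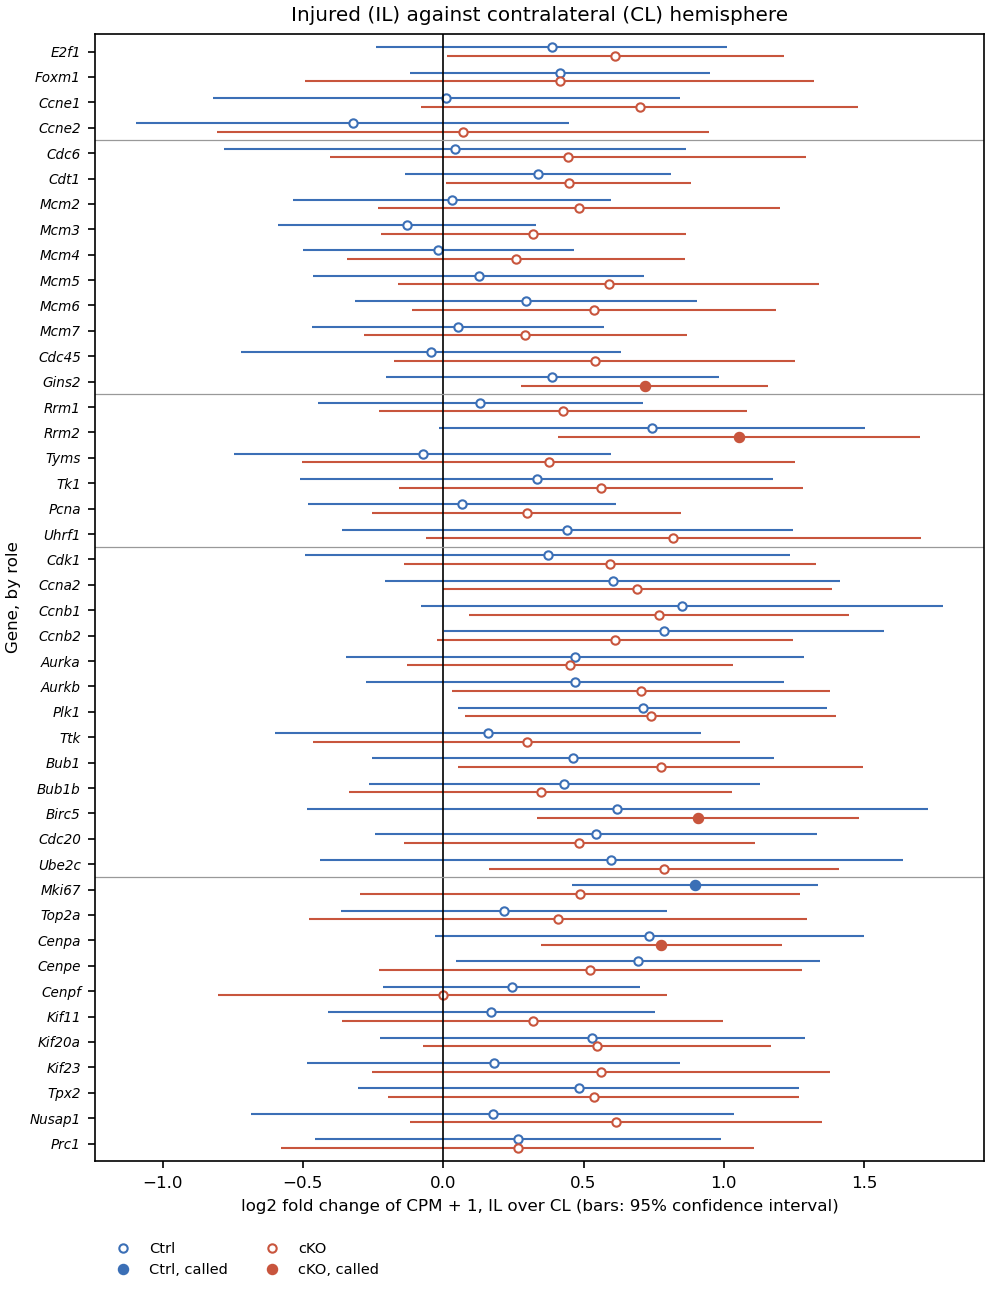
log2 fold change of IL over CL for each gene (rows, by role) in Ctrl and cKO mice, with 95% confidence intervals from limma; filled points passed the test. Nearly all points lie right of 0, but only Mki67 in Ctrl and Gins2, Rrm2, Birc5 and Cenpa in cKO are filled.

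Taken mouse by mouse, the direction differed between animals. In mouse 3592 (cKO) all 44 members were higher in IL, with a median difference of 1.36 on the log2(CPM + 1) scale. In mouse 3546 (Ctrl) 42 were higher (median 0.73), in mouse 3545 (Ctrl) 36 (0.35), and in mice 3551 (Ctrl) and 791 (cKO) 31 each (0.16 in both). In mouse 3541 (Ctrl) only 6 were higher and 38 were lower in IL (median -0.33). The 2 largest differences came from the mice with the 2 low CL libraries. Cdt1, Gins2, Ccnb1 and Cenpa were higher in IL in all 6 mice that had both hemispheres, and 20 further members in 5 of them. Ccne2 was higher in IL in 1 of the 6, and Cdc6, Mcm3, Mcm4 and Rrm1 in 2.

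The balance between the waves changed in a more even direction across mice than the total. The summed CPM of the 24 mitotic and spindle genes was divided by that of the 16 licensing, helicase, nucleotide and fork genes, a ratio chosen after the values were seen and given with no test. In mice 3541, 3545, 3546 and 3551 it was 1.04, 0.913, 0.777 and 0.947 in Ctrl CL and 1.12, 1.24, 1.14 and 1.17 in Ctrl IL. In Ctrl mice, every IL ratio was above every CL ratio, including in mouse 3541, whose summed level was lower in IL. In cKO CL the ratio was 1.14, 1.09 and 1.02 in mice 788, 791 and 3592, and in cKO IL it was 1.08, 1.13 and 1.18 in mice 784, 791 and 3592. The cKO ranges overlapped, and the ratio was higher in IL in all 6 mice with both hemispheres. Among the CL libraries of each genotype the ratio ranked in the same order as the summed level of all members. It was thus lowest in CL of mice 3546 and 3592, the low libraries. Among the IL libraries the orders differed in each genotype.

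**Figure D4:**
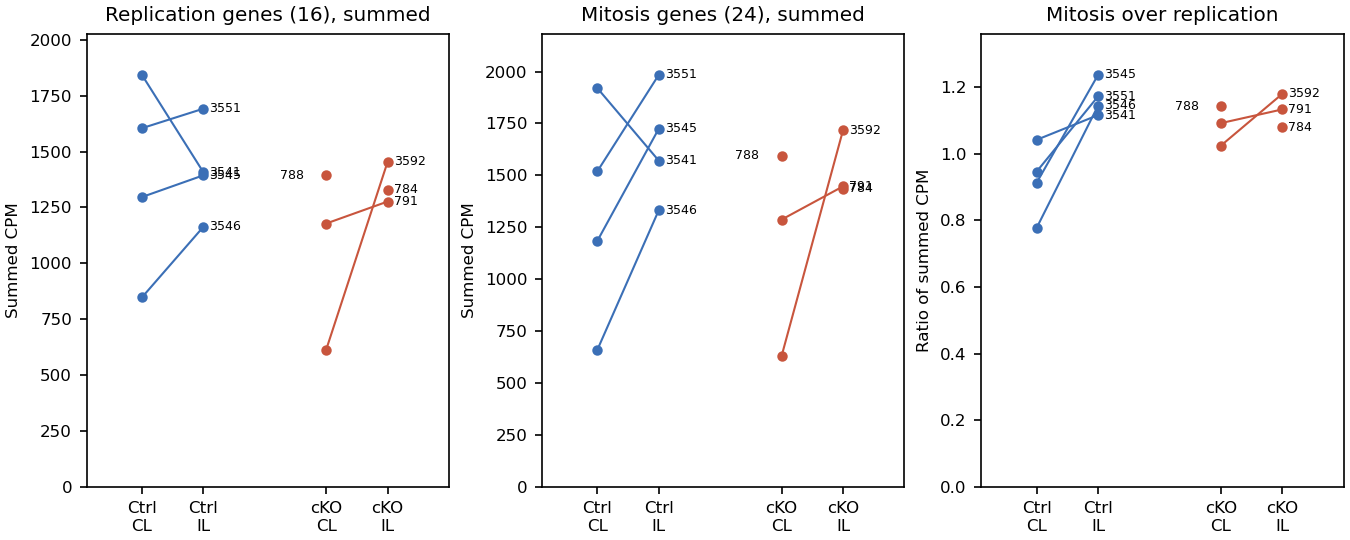
Summed CPM of 16 replication genes, of 24 mitosis genes, and the ratio of the sums (y axes, from 0) in each library by genotype and hemisphere (x axis), with lines joining the hemispheres of a mouse. The sums cross between hemispheres, with mouse 3541 falling, while every line of the ratio rises from CL to IL.

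The next comparison asked whether cKO mice differed from Ctrl mice in the injured hemisphere. None of the 44 members was called by limma, where 0.664% of all genes were called, and 1 member was under an unadjusted p of 0.05, against 9.2% of all genes. The median log2 fold change was -0.04, against 0.02 over all genes tested, and 19 members lay above 0, against 53% of all genes. Leaving out 1 library moved the median between -0.20 (7 above 0, without Ctrl IL of mouse 3546) and 0.03 (26 above 0, without Ctrl IL of mouse 3551). Mcm3 had the smallest p. It measured 189, 204, 173 and 226 CPM in Ctrl IL and 138, 153 and 166 CPM in cKO IL, so every cKO library was below every Ctrl library, which held for 5.48% of all genes. Its log2 fold change was -0.35 ± 0.13 (adjusted p = 0.451, limma), and only without Ctrl IL of mouse 3546 did it pass, at -0.46 (adjusted p = 0.0475, limma). Tyms, which makes thymidylate, measured 45.4, 50.3, 27.3 and 53.8 CPM in Ctrl IL and 47.1, 74.1 and 68.1 CPM in cKO IL, overlapping ranges with a log2 fold change of 0.54 ± 0.28 (adjusted p = 0.644, limma). Mcm6, another helicase subunit, had -0.26 ± 0.14 (adjusted p = 0.68, limma). The 95% interval for Mki67 was -0.46 to 0.29 and for Top2a -0.34 to 0.17, so true differences anywhere in those intervals remain compatible with these libraries.

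In the contralateral hemisphere, 0 of 44 members were called by limma, where 0.903% of all genes were called, and 1 was under an unadjusted p of 0.05, against 10.2% of all genes. Mcm3 was again that gene, at 295, 231, 161 and 248 CPM in Ctrl CL and 140.4, 172 and 85.0 CPM in cKO CL (-0.81 ± 0.28, adjusted p = 0.338, limma). The cKO value of mouse 791 exceeded the lowest Ctrl value, so the groups overlapped. Pcna, the sliding clamp of the replication fork, whose pseudogene adds doubt, had -0.47 ± 0.30 and Cdc45, the helicase cofactor, -0.58 ± 0.39 (adjusted p = 0.645 and 0.669, limma). The median over the members was -0.21, with 8 above 0, against -0.02 and 47.1% over all genes tested. Without cKO CL of mouse 3592 the median was 0.16 and 38 lay above 0, and without Ctrl CL of mouse 3546 it was -0.55 and 2 were above 0. The direction of the whole set in CL thus turned with 1 library.

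**Figure D5:**
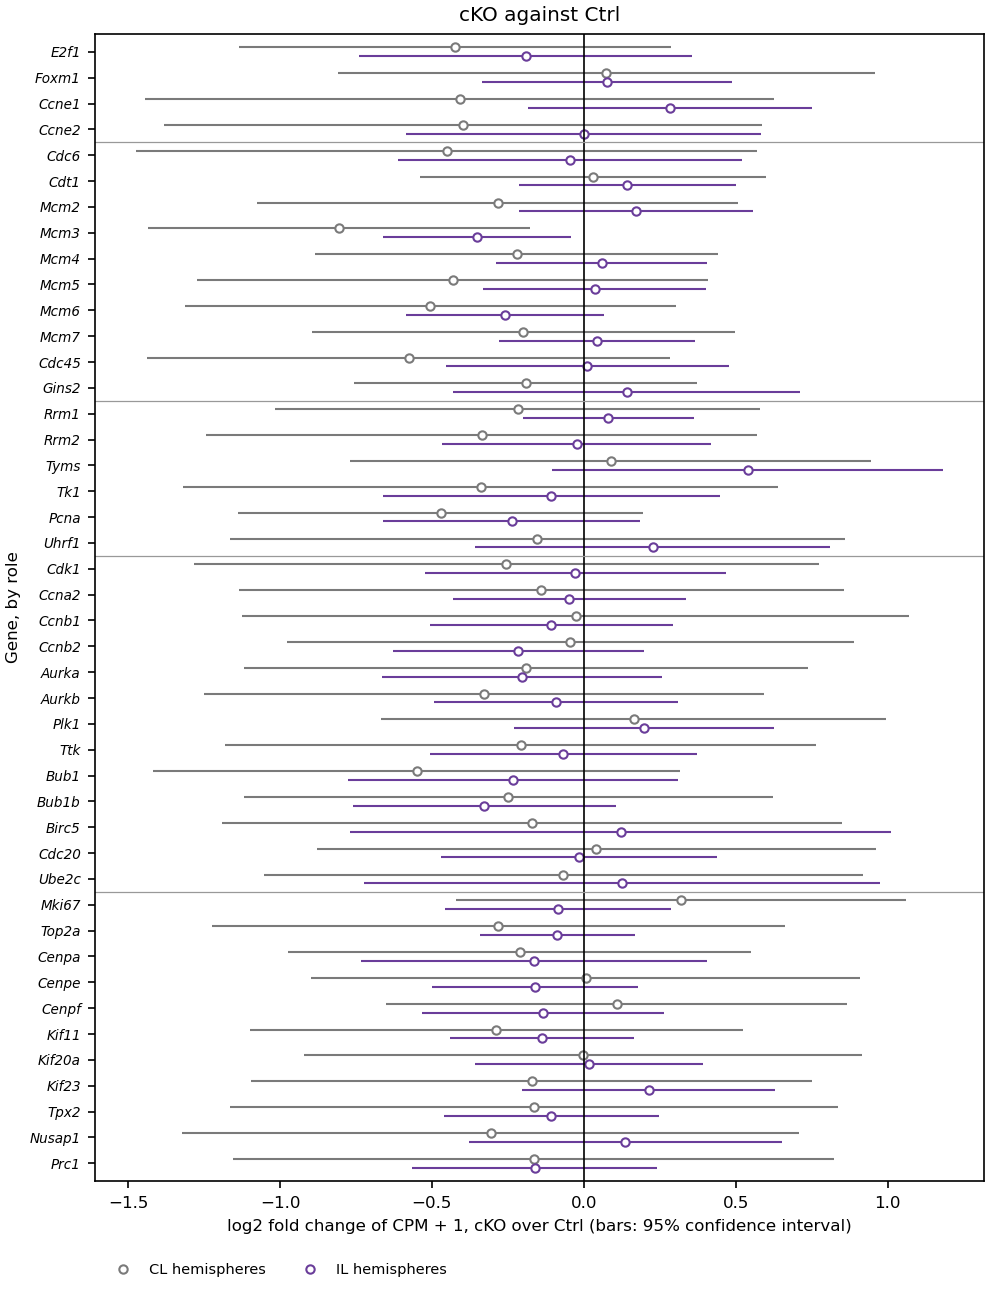
log2 fold change of cKO over Ctrl for each gene (rows, by role) in CL and IL hemispheres, with 95% confidence intervals from limma. No point is filled, meaning that no gene passed the test in either hemisphere, and the CL intervals are wider than the IL intervals for nearly all genes.

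Whether the response to injury differed between genotypes was tested as a genotype by hemisphere interaction over the 14 libraries. No member was called by limma, nor was any (0%) of the 18476 genes tested, of which 2.65% (none of them members) had an unadjusted p under 0.05; with the mouse as a random effect 5 genes (0.0271%) and 0 members were called. The interaction log2 term was 0.42 ± 0.35 for Mcm3, 0.66 ± 0.58 for Ccne1, the G1/S cyclin, and 0.55 ± 0.49 for Cdc45, the 3 members with the smallest p (adjusted p = 0.9997 for each, limma). Hence the calls of Mki67 in Ctrl mice and of Rrm2, Birc5, Cenpa and Gins2 in cKO mice are not shown to differ between genotypes. For Mki67 the interval of the interaction was -1.33 to 0.44.

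A further 97 genes of the cell cycle, grouped as G1 regulators, inhibitors and pocket proteins, replication, checkpoint and repair, and mitosis, were followed beside the 44. In Ctrl mice 1 of the 95 tested was called between hemispheres, beside 7.51% of all genes. With either form of the mouse block 10 were called (6 higher and 4 lower in each), beside 20.4% of all genes with the mouse fixed and 23.9% with the mouse as a random effect. It was Btg2, an antiproliferative gene, which ranged over 1560.2 to 2539 CPM in CL and 828 to 1403 CPM in IL (-0.84 ± 0.17, adjusted p = 0.0194, limma). In cKO mice Btg2 also fell, with 1961 to 3006 CPM in CL and 1024 to 1297 CPM in IL (-0.94 ± 0.19, adjusted p = 0.0113, limma), and in neither genotype did the hemispheres overlap, which held in that direction for 11.4% of all genes in Ctrl and 24.3% in cKO. Both block fits also called Btg2 in each genotype, while leaving out 1 library kept the call in 4 of 8 fits in Ctrl (adjusted p up to 0.0558, limma; lost without Ctrl CL of mouse 3546 or Ctrl IL of mouse 3541, 3545 or 3551) and in 4 of 6 in cKO (up to 0.0532, limma; lost without cKO IL of mouse 784 or 791). With no filter the call in Ctrl was lost (adjusted p = 0.0559, limma). cKO mice had 8 further calls, 6 of them higher in IL, so that 9 of 95 genes were called beside 23.1% of all genes. With the mouse as a random effect 7 were called, 3 of them higher, beside 17.7% of all genes called and 7.73% called higher. With the mouse fixed 23 were called, 20 of them higher, beside 14.5% and 8.42%. Among mitotic genes 4 of 36 rose, beside 12.3% of all genes, including Nek2, a centrosome kinase (0.91 ± 0.20), and Spc24, a kinetochore subunit (0.91 ± 0.26, adjusted p = 0.0163 and 0.0395, limma). Cdk4, the G1 kinase, rose by 0.48 ± 0.11, E2f3 was lower at -0.45 ± 0.12, and the CDK inhibitor Cdkn2d rose by 0.68 ± 0.09 (adjusted p = 0.0193, 0.0341 and 0.00362, limma). The pocket protein gene Rbl2 was lower at -0.45 ± 0.11 (adjusted p = 0.02, limma). When 1 library was left out, Cdkn2d was called in 6 of 6 fits, Nek2 in 4, Spc24, Cdk4 and Rbl2 in 3 each and E2f3 in 0. In a single fit of the 14 libraries Nek2, Spc24, Cdk4, E2f3 and Cdkn2d all lost their calls (adjusted p = 0.0601, 0.294, 0.202, 0.352 and 0.142, limma). E2f3 was not called in either block fit (adjusted p = 0.14 with the mouse as a random effect and 0.155 with the mouse fixed, limma), Spc24 was not with the random effect (0.0752) and Rbl2 was not with the mouse fixed (0.137). Spc24 was also lost with deposited CPM without further scaling and with no filter (adjusted p = 0.0516 and 0.0774, limma). None of the 24 replication genes and none of the 10 checkpoint and repair genes was called in either genotype in the unpaired fits, with 1 and 0 under an unadjusted p of 0.05 in Ctrl and 3 and 0 in cKO. With the mouse fixed, 1 replication gene was called higher and 1 lower in Ctrl and 3 were called higher in cKO, and with the mouse as a random effect 1 was called lower in Ctrl and 0 in cKO; no checkpoint and repair gene was called in either.

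Between genotypes, Ccnd1, the D-type cyclin that starts G1, was the only one of these genes called, where 0.664% of all genes were called in IL and 0.903% in CL. It measured 39.1, 30.7, 65.2 and 36.6 CPM in Ctrl IL of mice 3541, 3545, 3546 and 3551 and 83.0, 115 and 123 CPM in cKO IL of mice 784, 791 and 3592 (1.36 ± 0.22, adjusted p = 0.04, limma). In CL it measured 41.5, 68.4, 44.3 and 74.5 CPM in Ctrl and 79.4, 140.4 and 164 CPM in cKO (1.17 ± 0.27, adjusted p = 0.104, limma). In both hemispheres every cKO library was above every Ctrl library, which held for 4.85% of all genes in IL and 3.97% in CL, while none of the 44 members was called. The Ccnd1 call in IL was lost with the mouse as a random effect (1.24, adjusted p = 0.0809, limma). It was also lost with deposited CPM without further scaling, with upper-quartile scaling and with no filter (adjusted p = 0.087, 0.0511 and 0.0862, limma). When 1 library was left out it was lost in 6 of 7 fits and kept only without Ctrl IL of mouse 3546, with log2 fold changes of 1.26 to 1.53 and adjusted p of 0.00148 to 0.209 (limma).

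Markers of cell types that a CD11b sort can hold moved with hemisphere beside the cell cycle genes. Counts of markers called here come from the unpaired fits unless a mouse block is named. In those fits 4.19% of all genes were called higher and 3.32% lower in IL in Ctrl, and 12.3% higher and 10.7% lower in cKO. Of 8 microglia markers, 5 were called lower in IL in Ctrl and 6 in cKO. Of 8 infiltrating monocyte markers, 3 were called higher in IL in each genotype, and their summed level ranged over 242 to 815 CPM in Ctrl CL, 390.0 to 624 in Ctrl IL, 145 to 365 in cKO CL and 322 to 500.1 in cKO IL. Neutrophil markers, 9 in number, summed to 553 to 7823 CPM in Ctrl CL, 165 to 1017 in Ctrl IL, 587 to 1652 in cKO CL and 236 to 372 in cKO IL, and were called lower in IL for 0 in Ctrl and 6 in cKO. With the mouse as a random effect 7 were called lower in Ctrl and 2 in cKO, and with the mouse fixed 8 and 7. Over all genes 12.8% and 10% were called lower with the random effect and 10.3% and 6.04% with the mouse fixed, in Ctrl and cKO. The neutrophil markers had median log2 fold changes of -2.74 in Ctrl and -1.34 in cKO in the unpaired fits. In Ctrl CL of mice 3541, 3545, 3546 and 3551 the neutrophil sums were 7823, 2493, 3589 and 553 CPM, beside the member sums of 3909.8, 2574, 1569 and 3265 CPM. The library with the lowest member sum thus had the next to highest neutrophil sum, and the highest of both were in mouse 3541. In cKO CL of mice 788, 791 and 3592 they were 587, 915 and 1652 CPM, beside member sums of 3119, 2563 and 1289 CPM, so the orders were opposite in these 3 libraries. The 9 lymphocyte markers summed to 19.3 to 55.9 CPM in any library, with 5 of them under 1 CPM in every library of each group, and 2 were called lower in IL in Ctrl and 0 in cKO. Markers of the oligodendrocyte lineage, 8 in number, summed to 87.2 to 155 CPM in Ctrl CL, 82.1 to 151 in Ctrl IL, 54.4 to 80.6 in cKO CL and 112 to 141 in cKO IL, with 1 called higher in IL in Ctrl and 2 in cKO, led by Cspg4 (2.60 ± 0.26 in Ctrl and 2.71 ± 0.36 in cKO, adjusted p = 0.000665 and 0.00321, limma). The 6 endothelial markers summed to 94.6 to 218 CPM in Ctrl CL, 88.0 to 134 in Ctrl IL, 78.9 to 137 in cKO CL and 111 to 160.1 in cKO IL, with 0 called in Ctrl and 1 higher in cKO. The part of these cell types in the cell cycle values was not tested.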

How the data were processed

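RNA of CD11b+ cells from 14 hemispheres of 8 mice as numbered was made into Smart Seq v4 libraries and sequenced paired-end. According to the submitters' processing notes and the study's methods, reads were processed in Partek Flow 8.0 with STAR on mm10. The table that the authors deposited as raw counts holds CPM: each column sums to 1000000, and 79.0% to 83.5% of values under 100 reads are whole multiples of 1 step (within 0.03 of a read), too few to recover counts, so no count test was used. The authors' 2 tables of their own comparisons (fold changes and p-values) were not used.

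The 44 members, their 5 roles, the 97 other cell cycle genes and the 6 marker lists (microglia, infiltrating monocyte, neutrophil, lymphocyte, oligodendrocyte lineage and endothelial) were chosen with earlier results of these data known. CPM were scaled by unweighted TMM factors (30% and 5% trimmed) from the genes tested and analysed as log2(CPM + 1) with limma 3.58.1 (trend, R 4.3.3), two-sided. A gene was tested when it reached the CPM of 10 reads at median depth in as many libraries as the smaller group and the equivalent of 15 reads in all. P-values were adjusted over all genes tested by Benjamini-Hochberg, and a gene was called at an adjusted p of at most 0.05 and a fold of at least 1.2. Fold changes on this scale understate the change of low genes. Groups and mouse numbers come from the sample labels. The level of the targeted gene is not reported here. Both hemispheres of 6 mice were sequenced, and same-mouse libraries deviated together from their group means (correlations 0.18 to 0.60, median 0.41), so the mouse was also fitted as a block. The 19 other pairs ranged from -0.53 to 0.50 (median -0.22), with 784 and 788 among them at 0.18. Centring on the means of groups of 3 or 4 libraries itself pulls other pairs below 0, so their median is no neutral baseline. Mice 784 and 788, as labelled, have 1 hemisphere each. They were treated as separate mice, which is in doubt. Nothing beyond the mouse numbers says how batches were formed. The members named are up to 2 per role, Mki67, Top2a, members called, and the 3 smallest p otherwise, with values by library for part of them and fold changes for the rest. Of the other cell cycle genes, the 2 largest called changes per list are named, and the remaining called genes Rbl2, Cks1b and Cdca3 are counted, Rbl2 being named after its values were seen. The 5 promoters printed were chosen after their letters were seen. Alternatives were other pseudocounts, scalings, filters and fold thresholds, the mouse block, a single fit of the 14 libraries, leaving out each library and a shorter promoter window; TMM factors from all genes and leaving out both libraries of mouse 3546 or 3592 were chosen after seeing the data. The limma step was tested on simulated data. Summaries and figures were made with Python 3.11.15, pandas 2.3.3 and matplotlib 3.10.9.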

Additional observations from a re-analysis of the deposited data

Results flagged for a closer look

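In 6 of 92 checks of the groups of 4 libraries (the 44 members, their total and the neutrophil marker sum, in Ctrl CL and Ctrl IL), the highest or lowest library lay farther from its nearest neighbour than Dixon's 95% limit allows, which chance does in about 1 of 20 such checks. All 6 were in Ctrl IL and none in Ctrl CL. Ctrl IL of mouse 3551 stood high for E2f1 (52.2 CPM), Foxm1 (49.1 CPM), Mcm5 (155 CPM) and Plk1 (74.8 CPM). Ctrl IL of mouse 3546, the shallowest library, stood low for Ube2c (23.1 CPM) and Nusap1 (30.8 CPM).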

How the results depend on the processing

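For IL against CL in Ctrl, 1 member was called as reported, beside 7.51% of all genes. With deposited CPM without further scaling 0 were called (8.79% of all genes called), and with no filter also 0 (1.67%). The count was likewise 0 with a fold of at least 2 (3.49%) and without both libraries of mouse 3546 (9.03%). Pairing the hemispheres by a replicate block gave 9 (mouse fixed, 20.4% of all genes called) or 6 (mouse random, 23.9%). Leaving out 1 library in turn gave 0 to 1, beside 3.37% to 9.89% of all genes. For IL against CL in cKO, 4 were called as reported, beside 23.1% of all genes. With no filter 1 was called (7.52% of all genes called), and with a fold of at least 2 also 1 (4.86%). A single fit of the 14 libraries called 0 (8.47%), and the block with the mouse fixed called 21 (14.5%). Leaving out 1 library gave 0 to 12 (14.3% of all genes called in the fit that gave 12). For cKO against Ctrl, leaving out 1 library gave 0 to 1 call in IL and 0 in CL, and 0 for the interaction. The 1 call in IL came without Ctrl IL of mouse 3546, where 1.78% of all genes were called. Over all genes the other IL fits called 0.249% to 0.656%, the CL fits 0.38% to 0.978% and the interaction fits at most 0.00519%. The block as a random effect called 0 members in each, beside 1.02%, 1.6% and 0.0271% of all genes. Windows with an E2F-type word fell from 14 to 7 (35.9% to 17.9%) when the promoter was cut to 100 bases before the start, and those of all promoters from 9.57% to 5.60%. Of the named gene values under alternatives, 638 kept direction and side of the threshold, 33 lost a call, 15 gained one and 7 reversed. The reversals came with the low CL libraries. Without Ctrl CL of mouse 3546, Top2a was -0.050 (highest 0.40 when another library was left out), and -0.0072 without both libraries of that mouse. Without cKO CL of mouse 3592, Foxm1 was -0.091 and Top2a -0.12 (highest 0.80 and 0.74), and without both libraries of that mouse Foxm1 was -0.21, Mki67 -0.062 and Top2a -0.13. The causes were not tested. With 3 or 4 libraries a group and the spread of CL, most 95% intervals for single members spanned more than 1 log2 unit, other than for cKO against Ctrl in IL.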
